A study of Mus musculus with 22 samples.

Results

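To describe how the genes of the splicing machinery were marked in Bcor-mutant myeloid progenitors, H3K27ac was examined at 10 splicing factor genes, chosen by name from 21853 protein-coding genes. They are the SR protein genes Srsf1, Srsf2, Srsf3, Srsf5, Srsf6 and Srsf7, the SR-related and SR-like genes Srsf11 and Tra2b, and Sf3b1 and U2af1, whose products recognise the branch site and the 3′ splice site. H3K27ac, acetylation of histone H3 at lysine 27, marks active promoters and enhancers. It was measured by chromatin immunoprecipitation sequencing (ChIP-seq) in KL cells, the Lin-cKit+Sca1- myeloid progenitors of the bone marrow, sorted from male C57BL/6 mice of genotype scl-Cre-ERT +; Bcorfl/y. Tamoxifen had been injected at 1 mg per day for 5 days when the mice were 3 to 6 months old, and marrow was taken 20 weeks later. Cre removes exons 9 and 10 of Bcor, a subunit of a variant Polycomb repressive complex, and gives BcorΔE9-10 cells. The recombinase is driven from regulatory sequence of Scl (Tal1), which acts in stem and progenitor cells, and cells in which it did not act cannot be told apart in these files. The group holds 3 libraries, replicates 1, 2 and 3 of the labels, and the methods of the study give 3 BcorΔE9-10 mice for ChIP-seq. The other 19 of the 22 samples of the series are not used here. H3K27ac of BcorWT cells is not analysed, so no value below compares genotypes, and a high value says nothing of Bcor loss.

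Pre-mRNA splicing is carried out by the spliceosome, which assembles from small nuclear ribonucleoproteins (snRNPs) on the splice sites of each intron. U2AF binds the 3′ splice site and helps to place the U2 snRNP on the branch site. SR proteins, named after their domain of serine and arginine repeats, bind exonic enhancers and recruit these factors, and many of them limit their own amount through "poison" exons that send the transcript to nonsense-mediated decay. SRSF2, SF3B1 and U2AF1 are among the genes most often mutated in myelodysplastic syndromes, which is why this group is of interest in myeloid cells.

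Depth recovered from the peak lists was 18.0, 18.9 and 19.3 M reads, and the lists held 23410, 25963 and 23758 peaks. The labelled cell type was checked on marker genes. All 7 progenitor genes of the list (Kit, Gata2, Myb, Runx1, Spi1, Cebpa and Mpo) had a peak at a transcription start site (TSS) in each library, none of 9 genes of lineage-positive and mature cells had one in all 3 libraries, and none of 8 non-haematopoietic genes had one in any. Of the 9 genes, 3 had a weak peak in 1 library each, with a fold enrichment of 3.00 to 5.29. The libraries come from bulk cells, so more cells carrying the mark and more of it per cell cannot be told apart.

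All 10 splicing factor genes carried a TSS peak in all 3 libraries. The TSS peak of a gene has the highest fold enrichment among peaks within 1 kb of the start of any of its protein-coding transcripts. Fold enrichment is the signal at the summit divided by the local background that the authors' peak caller expected there. Across all protein-coding genes 42.5% had a TSS peak in all 3 libraries (9287 of 21853). Fold enrichment at the members ran from 9.97 to 42.0 in replicate 1, from 16.6 to 29.0 in replicate 2 and from 13.8 to 34.4 in replicate 3. The members' median was 24.7, 25.9 and 28.2, beside 9.10, 9.30 and 10.8 over all genes with a TSS peak. Every member was above the median of all genes in each library, which held for 43.4% of the 9287 genes. With the widest peak near a start in place of the strongest, 9 of 10 were, all but Srsf3. The share of all genes was not counted under that choice. Tra2b, Srsf5, Srsf6, Sf3b1, U2af1 and Srsf11, 6 of the 10, were above the 95th percentile of all genes (23.7, 21.9 and 25.8) in each library, beside 3.06% of the 9287 genes. These counts have no test, since the genes were listed with results of these data known. Between 47 and 157 fragments lay at the strongest summit of a member, against 8, 8 and 9 at the weakest summit in the lists, so none of these peaks was near the limit of detection. The local background under those summits was 2.4 to 4.0 fragments, beside 1.93 to 2.02 fragments for the genome as a whole.

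**Figure D1:**
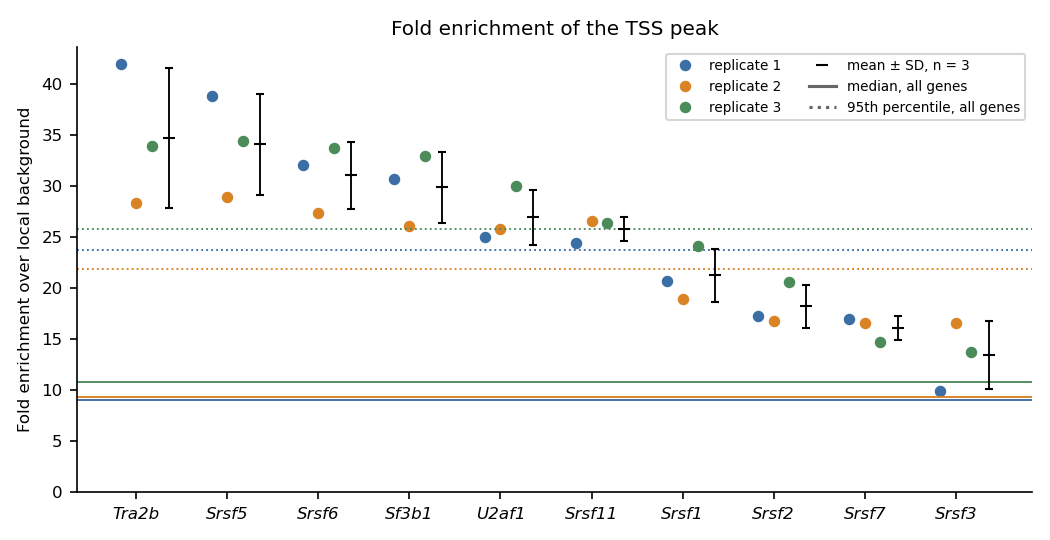
Fold enrichment of the TSS peak over local background (vertical axis, no unit) for each splicing factor gene, ordered by mean. Points are replicates 1, 2 and 3, black bars the mean ± SD over the 3 libraries, solid lines the median and dotted lines the 95th percentile over all genes with a TSS peak in that library. Tra2b to Srsf11 lie above the dotted line of their library in all 3 libraries, Srsf3 lies closest to the solid lines.

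Tra2b, which encodes a relative of the fly Transformer-2 protein that binds GA-rich exonic enhancers, had the highest mean fold enrichment, 34.7 ± 6.86 (SD, n = 3), rank 27 of 9287 genes. Its values were 42.0, 28.3 and 33.9. The summit held 145 fragments in replicate 1 (exact Poisson 95% interval 122 to 171), 101 in replicate 2 (82.3 to 123) and 137 in replicate 3 (115 to 162), and all 3 intervals overlapped. Intervals of this kind cover counting error only. Srsf5, an SR protein gene, followed at 38.9, 29.0 and 34.4, a mean of 34.1 ± 4.96 (SD, n = 3), rank 36. Its lowest library was still at percentile 99.2 of all genes. Srsf6, another SR protein gene, gave 32.0, 27.4 and 33.8, a mean of 31.1 ± 3.29 (SD, n = 3), rank 88. In all 3 genes replicate 2 was the lowest, and the ranges of the 3 genes overlapped.

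The promoters of these genes are shown because the peaks lie differently on them. Each is the 250 bases before the RefSeq start in GRCm38, read on the coding strand, with capitals for letters that match any of the 8 motifs defined further on. The Tra2b window is chr16:22266006-22266255 on the minus strand, that of Srsf5 chr12:80945249-80945498 on the plus strand and that of Srsf6 chr2:162931258-162931507 on the plus strand.
Tra2b: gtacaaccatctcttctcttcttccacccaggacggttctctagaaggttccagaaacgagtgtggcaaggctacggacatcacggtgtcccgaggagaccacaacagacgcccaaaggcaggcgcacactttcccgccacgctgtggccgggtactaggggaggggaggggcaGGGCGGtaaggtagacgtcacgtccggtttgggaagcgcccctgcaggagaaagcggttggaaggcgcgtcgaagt
Srsf5: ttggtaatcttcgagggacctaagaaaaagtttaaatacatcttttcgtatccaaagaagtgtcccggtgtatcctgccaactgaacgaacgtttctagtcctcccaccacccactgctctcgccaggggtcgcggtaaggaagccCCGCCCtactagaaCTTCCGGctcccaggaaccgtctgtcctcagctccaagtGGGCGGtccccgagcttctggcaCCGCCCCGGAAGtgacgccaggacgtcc
Srsf6: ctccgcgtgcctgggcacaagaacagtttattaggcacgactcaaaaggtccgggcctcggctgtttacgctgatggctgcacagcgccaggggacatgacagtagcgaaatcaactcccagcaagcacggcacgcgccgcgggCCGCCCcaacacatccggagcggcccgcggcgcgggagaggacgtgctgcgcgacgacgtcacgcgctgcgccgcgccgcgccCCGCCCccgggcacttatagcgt
At Tra2b the 3′ end of the window was bare: a peak ended 118, 113 and 97 bp upstream of the principal TSS, the start of the transcript that the annotation marks as principal, and the TSS peak began 67, 54 and 72 bp downstream of it. The gap was 184, 166 and 168 bp in replicates 1, 2 and 3, and peaks covered 133, 138 and 154 of the 250 bases. At Srsf6 all 250 bases lay inside the TSS peak in each library. At Srsf5 41, 0 and 153 of the bases were covered, so the libraries differed there.

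Sf3b1, which encodes the largest subunit of the SF3b complex of the U2 snRNP, had a fold enrichment of 30.7, 26.1 and 32.9, a mean of 29.9 ± 3.48 (SD, n = 3), rank 118. U2af1, which encodes the small subunit of U2AF that reads the AG of the 3′ splice site, had 25.05, 25.75 and 29.97, a mean of 26.9 ± 2.66 (SD, n = 3), rank 235. Sf3b1 was the higher of the pair in 3 of 3 libraries, although the ranges overlapped. Taken against the library median, U2af1 differed least between libraries, at 2.75, 2.77 and 2.78 times that median. Counting error was larger than these differences. Its summits held 110, 102 and 121 fragments (exact Poisson 95% intervals 90.4 to 133, 83.2 to 124 and 100 to 145). By fold enrichment itself the CV was 9.89% at U2af1 and lowest at Srsf11, 4.58%. Peaks took up a small part of these genes. They covered 2.996% ± 0.547 (SD, n = 3) of the 42313 bp of Sf3b1 and 10.4% ± 1.63 (SD, n = 3) of the 11812 bp of U2af1, beside 40.4% ± 5.05 (SD, n = 3) of the 3194 bp of Srsf2.

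Srsf1, Srsf2 and Srsf7 formed the lower part of the order and were above the median but not above the 95th percentile. Srsf1, the first SR protein to be described, gave 20.69, 18.96 and 24.11, a mean of 21.3 ± 2.62 (SD, n = 3). Srsf2, the member of the SR family that is mutated in myelodysplastic syndromes, gave 17.3, 16.7 and 20.7, a mean of 18.2 ± 2.12 (SD, n = 3). Srsf7, an SR protein with a zinc knuckle that also serves as an adaptor for mRNA export, gave 16.98, 16.59 and 14.74, a mean of 16.1 ± 1.19 (SD, n = 3). Replicate 3 was the highest library for Srsf1 and Srsf2 and the lowest for Srsf7. Taken against the library median, Srsf1 was highest in replicate 1 (2.27, 2.04 and 2.24 times that median). The places of replicate 3 at Srsf2 and Srsf7 did not change. In the order of mean fold enrichment from Tra2b to Srsf3, every pair of neighbours overlapped in range except Srsf11 and Srsf1, where all 3 libraries of Srsf11 lay above all 3 of Srsf1.

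Srsf3, the smallest SR protein and an adaptor for mRNA export as well, had the weakest TSS peak, 9.97, 16.6 and 13.8, a mean of 13.4 ± 3.32 (SD, n = 3), rank 2925. In replicate 1 it was near the library median (percentile 55.9) and in replicate 2 it was at percentile 85.1, so its place differed between libraries. It was also the member whose strongest summit lay upstream of the gene, at 345, 297 and 309 bp before the principal TSS. A long noncoding RNA, Gm16196, starts 60 bp upstream and runs the other way, and that start lay outside the peak. Inside the gene a second, weaker peak ran from 41, 49 and 41 bp to 1486, 1432 and 1652 bp downstream of the TSS, with a fold enrichment of 8.02, 9.29 and 9.38. The upstream peak is the TSS peak because it was the stronger, and the downstream peak was the wider in 3 of 3 libraries. The gap between them was 112, 115 and 115 bp. The promoters of Srsf3 (chr17:29032410-29032659, plus strand) and Srsf2 (chr11:116853095-116853344, minus strand) are shown because they alone among the members hold the letters TATAAA. These lie 18 and 29 bases before the RefSeq start. The RefSeq start of Srsf3 is 32 bp downstream of the principal TSS, so its TATAAA lies downstream of that TSS. At Srsf2 the RefSeq start is the principal TSS.
Srsf3: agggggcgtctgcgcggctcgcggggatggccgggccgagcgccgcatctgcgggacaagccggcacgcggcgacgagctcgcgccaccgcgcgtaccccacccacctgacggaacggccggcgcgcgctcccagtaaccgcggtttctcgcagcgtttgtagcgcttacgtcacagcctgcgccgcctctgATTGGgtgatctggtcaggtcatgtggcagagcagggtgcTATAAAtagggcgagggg
Srsf2: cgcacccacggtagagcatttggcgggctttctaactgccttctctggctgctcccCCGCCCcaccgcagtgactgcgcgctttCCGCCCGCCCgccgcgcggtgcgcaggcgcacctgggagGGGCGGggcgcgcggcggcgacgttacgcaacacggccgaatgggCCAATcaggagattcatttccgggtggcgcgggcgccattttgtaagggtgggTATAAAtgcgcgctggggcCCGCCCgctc
At Srsf3 147, 152 and 144 of the 250 bases were covered by peaks. At Srsf2 0 of the 250 bases were covered in each library, since the upstream peak ended 346, 308 and 308 bp before the TSS and the TSS peak began 58, 60 and 35 bp after it.

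Srsf11, which encodes an SR-related protein, had its strongest peak at another start. The TSS peak lay around a second annotated coding start, 4873 bp downstream of the principal TSS, with a fold enrichment of 24.4, 26.5 and 26.4, a mean of 25.8 ± 1.18 (SD, n = 3). Its strongest summit was 5095, 5079 and 5056 bp downstream of the principal TSS, in exon 2 of the principal transcript in each library. A separate peak covered the principal TSS itself, from 462, 548 and 517 bp upstream to 946, 811 and 763 bp downstream, with a fold enrichment of 16.9, 12.5 and 16.2. The peak at the second start is the TSS peak in each library because it was the stronger. The peak at the principal TSS also held 6 annotated starts of Lrrc40, a protein-coding gene that runs the other way from 23 to 221 bp upstream, and the start of Gm43362, so its signal cannot be assigned to Srsf11 alone. Both promoters are listed in RefSeq, at chr3:158036607-158036856 and, for the second start, chr3:158031749-158031998, minus strand.
Srsf11, principal: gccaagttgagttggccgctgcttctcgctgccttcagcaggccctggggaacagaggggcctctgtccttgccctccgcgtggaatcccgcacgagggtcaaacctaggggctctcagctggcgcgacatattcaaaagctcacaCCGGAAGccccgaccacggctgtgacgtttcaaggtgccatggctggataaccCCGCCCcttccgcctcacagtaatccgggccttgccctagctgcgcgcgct
Srsf11, second start: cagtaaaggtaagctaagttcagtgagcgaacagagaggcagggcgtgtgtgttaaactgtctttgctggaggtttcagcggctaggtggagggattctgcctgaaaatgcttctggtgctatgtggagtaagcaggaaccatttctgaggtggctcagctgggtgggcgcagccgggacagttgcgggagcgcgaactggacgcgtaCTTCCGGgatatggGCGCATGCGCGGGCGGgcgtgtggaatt
Both windows lay wholly inside peaks in each library.

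**Figure D2:**
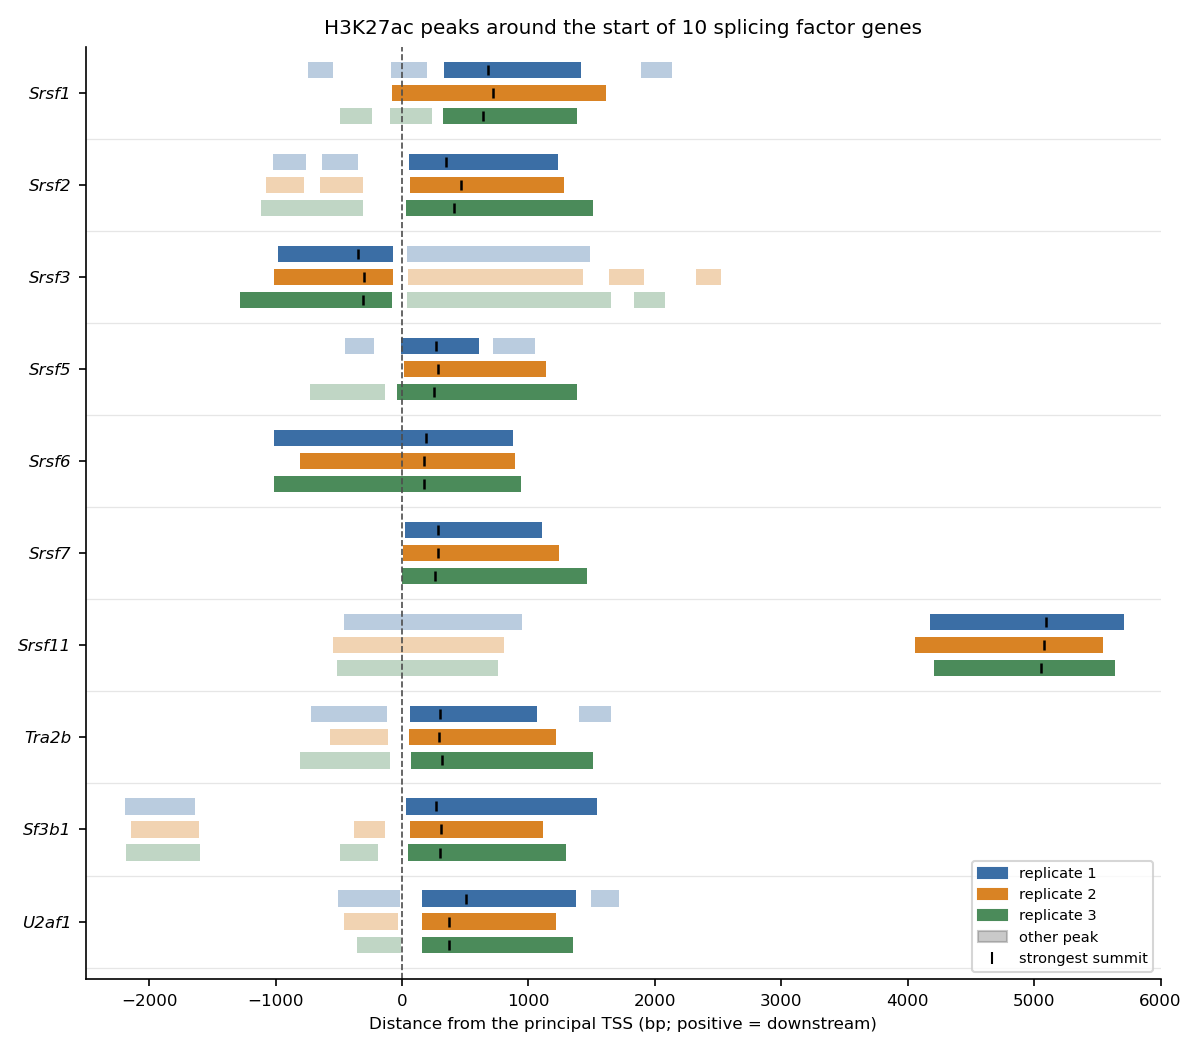
Peaks of the 3 libraries at each splicing factor gene, drawn to scale against distance from the principal TSS in bp (dashed line at 0, positive values downstream). Solid bars are TSS peaks, pale bars other peaks, black ticks the strongest summit. Solid bars begin just after the dashed line at Srsf2, Tra2b, Sf3b1 and U2af1, span it at Srsf6, lie before it at Srsf3, and at Srsf11 the solid bars sit at 4058 to 5712 bp.

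The TSS peaks of the members were wide as well as high. Their median width was 1132.5, 1191.5 and 1428 bp in replicates 1, 2 and 3, beside 650, 690 and 711 bp over all genes with a TSS peak. In 9 of 10 members the peak was wider than the library median in each library, which held for 39.3% of the 9287 genes. The exception was Srsf5, at 625, 1127 and 1419 bp. In replicate 1 the list splits the acetylated stretch of Srsf5 into a peak that ends 613 bp and another that runs from 718 to 1054 bp downstream of the TSS, where replicates 2 and 3 have 1 peak each.

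Srsf6 had the widest TSS peak, 1888, 1707 and 1956 bp, a mean of 1850 ± 129 (SD, n = 3), rank 264 of 9287. All 3 values lay above all 3 of the next member, Srsf11, at 1540, 1486 and 1437 bp (1488 ± 51.5, SD, n = 3). Srsf2 was next at 1179, 1219 and 1476 bp (1291 ± 161, SD, n = 3). From there to Srsf3, at 911, 946 and 1209 bp, each neighbour in the order overlapped the next, and the largest spread was that of Srsf5 (CV 38.0%), followed by Srsf1 (CV 28.0%), at 1084, 1695 and 1064 bp. In the order of mean width over all genes, Srsf6 lay between Tlnrd1 and Galnt1 (1851 and 1850 bp), and Srsf11 between Syvn1 and Wipf1 (1489 and 1487 bp). Srsf2 was tied at 1291 bp with Six5 and with Mfsd11, whose TSS peak is the same peak. In log2 units against the library median, Srsf6 was 1.44 ± 0.12 (SD, n = 3) and Srsf3 0.57 ± 0.17 (SD, n = 3) above it. A two-sided exact permutation test that flips the signs of the 3 values gave p = 0.25 for each of 9 members and 0.5 for Srsf5. The smallest p that 3 libraries allow is 0.25, and it is reached whenever the 3 values share a sign. The test therefore cannot decide whether a member was wider, and no conclusion is drawn from it.

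**Figure D3:**
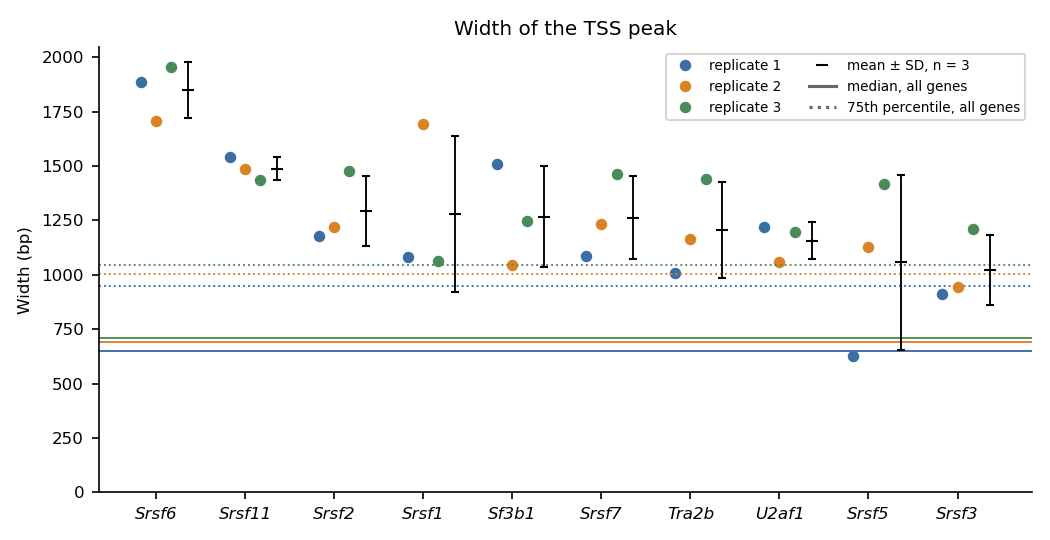
Width of the TSS peak in bp for each splicing factor gene, ordered by mean. Points are replicates 1, 2 and 3, black bars the mean ± SD over the 3 libraries, solid lines the median and dotted lines the 75th percentile over all genes with a TSS peak. Srsf6 stands above all other members, and the 625 bp peak of Srsf5 in replicate 1 is the only point under its library's median.

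The strongest summit was downstream of the principal TSS in each library at 9 of 10 members, all but Srsf3, beside 72.8% of the 9287 genes. Over all genes that summit lay a median of 203, 204 and 202 bp downstream of the principal TSS. At Srsf6 it was closer, at 190, 173 and 176 bp, and it lay in exon 1. At Srsf5 (268, 286 and 254 bp), Srsf7 (287, 286 and 263 bp), Sf3b1 (273, 312 and 300 bp) and Tra2b (299, 295 and 318 bp) it lay in intron 1, between 254 and 318 bp in all 4 genes and 3 libraries. At U2af1, 504, 374 and 373 bp, it was in intron 1 too. At Srsf2, 348, 465 and 415 bp, it was in exon 1, and at Srsf1, 683, 723 and 644 bp, around the end of exon 1. The summit was in intron 1 in each library at 5 members, beside 31.3% of the 9287 genes, and in exon 1 at 2 members, beside 24.0%. The range of its position over the 3 libraries ran from 17 bp at Srsf6, 23 bp at Tra2b and 24 bp at Srsf7 to 79 bp at Srsf1, 117 bp at Srsf2 and 131 bp at U2af1. The median of that range was 39 bp over the members, beside 61 bp over all genes.

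At 5 members, Srsf2, Srsf11, Tra2b, Sf3b1 and U2af1, the whole TSS peak lay downstream of the principal TSS in each library, beside 32.5% of the 9287 genes. At 5 members, Srsf2, Srsf3, Tra2b, Sf3b1 and U2af1, the principal TSS lay in no peak in any library, beside 42.9% of the genes. A principal TSS outside peaks was thus not particular to the members. These 5 also had a peak on each side of it in each library, which was not counted over all genes. At Sf3b1 the upstream peak was near the TSS in replicates 2 and 3 only. It ended 133 and 188 bp before the TSS there, with a fold enrichment of 2.50 and 5.08. In replicate 1 the nearest upstream peak ended 1640 bp before it. At U2af1 the upstream peak ended 13, 28 and 10 bp before the principal TSS and the TSS peak began 156, 161 and 157 bp after it. The reach of the TSS peak downstream of the principal TSS minus its reach upstream, each taken as 0 where the peak lay wholly on the other side, was positive in each library at 8 of 10 members, beside 71.8% of the 9287 genes. It ran from 1030.3 ± 385 bp (SD, n = 3) at Srsf5 to 1445 ± 78.8 bp (SD, n = 3) at Srsf1, and was 5632 ± 84.9 bp (SD, n = 3) at Srsf11, where the peak belongs to the second start. It was -1092 ± 166 bp (SD, n = 3) at Srsf3 and -39.3 ± 113 bp (SD, n = 3) at Srsf6, whose peak reached 1011, 810 and 1012 bp upstream and 876, 896 and 943 bp downstream. The same exact permutation test gave p = 0.25 for 9 members and 0.75 for Srsf6, and it has the same limit. At Srsf11 the shared sign follows from the place of the second start.

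Besides the TSS peaks, 14, 10 and 11 peaks lay in the gene bodies or within 5 kb of them. Srsf6 and Srsf7 had none in any library. At Srsf6 1 domain with 5, 3 and 3 summits covered the start, of which the strongest was 32.0, 27.4 and 33.8 and the next, 205, 210 and 190 bp upstream, 10.2, 10.4 and 13.2. At Srsf7 the acetylation was one-sided, with the TSS peak starting 26, 8 and 0 bp from the principal TSS and no peak upstream. Srsf2 shared its upstream side with Mfsd11, a protein-coding gene of the transporter family that runs the other way. The nearer peak there had a fold enrichment of 11.4, 13.7 and 14.7, and replicates 1 and 2 had another further upstream, with 5.40 and 4.17. All of these peaks held annotated starts of Mfsd11, and another Mfsd11 start lies 654 bp downstream, inside the Srsf2 TSS peak. At Srsf1 a peak of 283 and 327 bp in replicates 1 and 3 held the principal TSS and the start of the noncoding RNA 2010015M23Rik 13 bp upstream, with a fold enrichment of 8.65 and 10.0, and in replicate 2 this stretch was part of the TSS peak. The TSS peak of Srsf1 held the start of the antisense RNA Gm11508, 633 bp downstream, close to the strongest summit. At Srsf5 an upstream peak was found in replicates 1 and 3, with a fold enrichment of 3.13 and 3.50, near the start of the noncoding RNA Gm20337.

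Of the other peaks, 7 of 14, 4 of 10 and 4 of 11 held an annotated start, a share that was not taken over other genes. Some of the rest recurred. Sf3b1 had one 1640, 1603 and 1594 bp upstream at its near edge, 554, 541 and 591 bp wide, with a fold enrichment of 6.65, 3.57 and 7.27 and 31, 14 and 36 fragments. It was found in 3 of 3 libraries and was weakest in replicate 2. Tra2b had its upstream peak in 3 of 3 libraries, at 6.6, 8.0 and 8.8, and U2af1 at 9.74, 7.71 and 10.9. A second peak inside the gene was seen in replicate 1 only at Tra2b, 1402 to 1652 bp downstream with a fold enrichment of 2.77, and at U2af1, 1494 to 1714 bp downstream with 3.12. In replicates 2 and 3 the TSS peaks of Tra2b ended 1217 and 1513 bp downstream.

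No peak reached the exons of decay transcripts. For 8 members the annotation holds internal exon sequence that is found only in transcripts marked for nonsense-mediated decay, the class to which poison exons belong. None of these stretches was overlapped by a peak in any library. All began 1452 bp or more downstream of the TSS. The 75th percentile of TSS peak width over all genes was 947, 1002 and 1046 bp. The same count was not taken over other genes, so the absence is not shown to be particular to the members. The nearest was in Srsf5, 1612 to 1806 bp downstream of the TSS, where the nearest upstream peak ended 558, 469 and 230 bp before it. In Srsf6, 1452 to 1554 bp, that distance was 576, 556 and 509 bp, and in Srsf7, 2224 to 2683 bp, 1113, 983 and 760 bp. In Srsf3, 6826 to 7281 bp, and Tra2b, 6744 to 7019 bp, it was 4302 to 5340 bp and 5092 to 5527 bp. The last end of any peak at a member lay between 876 bp downstream of the principal TSS, at Srsf6 in replicate 1, and 5712 bp, at Srsf11 in replicate 1.

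The promoters of the members were rich in CpG. All 10 members matched RefSeq promoters, 12 windows in all since Srsf11 and U2af1 have more than 1. The RefSeq start was not always the principal TSS. It lay 33 bp downstream of it for the principal window of Srsf11, and 138 and 128 bp downstream for those of U2af1. The observed over expected CpG ratio ran from 0.720 at the principal start of Srsf11 to 1.2 at Srsf6, beside a median of 0.374 over 32851 promoters and 0.763 over the 9466 promoters of genes with a TSS peak in all 3 libraries. Against that last group Srsf6 was at percentile 98.6 and Srsf3 at 97.5, and the principal start of Srsf11 at 43.2. The 8 short motifs were searched on both strands. They are the CCAAT box, spelled as its name, the GC box (GGGCGG), the core bound by ETS factors (CCGGAAG), the cyclic AMP response element or CRE (TGACGTCA), the E box (CACGTG), the motifs of YY1 (AAGATGGCG) and of NRF1 (GCGCATGCG), and the TATA box (TATAAA). The GC box was found in 11 of the 12 windows, all but that of Srsf3, beside 59.8% of the 9466. By member this is 9 of 10, since the 2 windows of U2af1 overlap and hold the same GC boxes, and Srsf11 has 2 windows. The ETS core was found in 4 windows, of Srsf5, Srsf7 and both of Srsf11 (16.1% of the 9466), and the NRF1 motif in those of Srsf7 and the second start of Srsf11 (3.56%). The CCAAT box was found in those of Srsf2, Srsf3 and U2af1 (35.2%), and the TATA box in those of Srsf2 and Srsf3 (5.84%, beside 12.4% of all promoters). The CRE, the E box and the YY1 motif were in none of the 12, beside 3.12%, 8.64% and 1.43% of the 9466. In Srsf5 matches of the GC box and the ETS core share bases, and in the second window of Srsf11 the 2 matches of the NRF1 motif, 1 on each strand, overlap each other. Such matches describe the letters of a window and say nothing of binding.

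**Figure D4:**
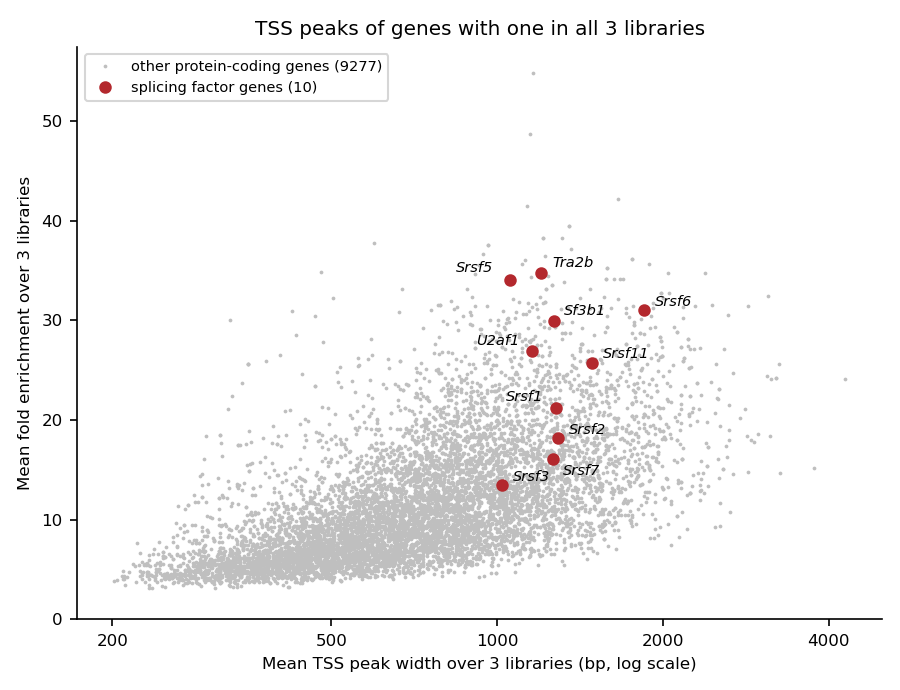
Mean TSS peak width (horizontal axis, bp, log scale) and mean fold enrichment (vertical axis) over 3 libraries for the 9287 protein-coding genes with a TSS peak in each. Grey points are 9277 other genes and red points the 10 splicing factor genes, which all lie to the right of 1000 bp, from 13.4 (Srsf3) to 34.7 (Tra2b) in fold enrichment.

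The members were set beside lists of other genes. Of 91 other splicing genes in 5 lists, 86 had a TSS peak in all 3 libraries, and 16 of these (18.6%) were above the 95th percentile of fold enrichment in each library, beside 6 of the 10 members and 3.06% of all genes. The median fold enrichment of 16 other SR and SR-related genes was 19.1, 16.4 and 21.3, that of 8 SR protein kinases 21.6, 16.0 and 19.3, that of 25 hnRNP and other regulators 17.8, 16.5 and 18.4, that of 20 other genes of the U2 snRNP and branch site 14.6, 12.1 and 18.3, and that of 22 genes of the U1, U4/U6, U5 and Sm proteins 13.4, 12.8 and 14.6. In each library all 5 lay below the median of the members and above that of all genes. Genes of other housekeeping machines had lower medians than the members. None of 58 cytosolic ribosomal protein genes and none of 31 proteasome subunit genes was above the 95th percentile in each library, although all 58 and all 31 had a TSS peak in all 3. Their median fold enrichment was 13.0, 12.0 and 15.3 for ribosomal proteins and 12.2, 13.2 and 14.4 for proteasome subunits. The 7 progenitor genes had medians of 6.83, 7.25 and 8.13, under the median of all genes in each library.

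**Figure D5:**
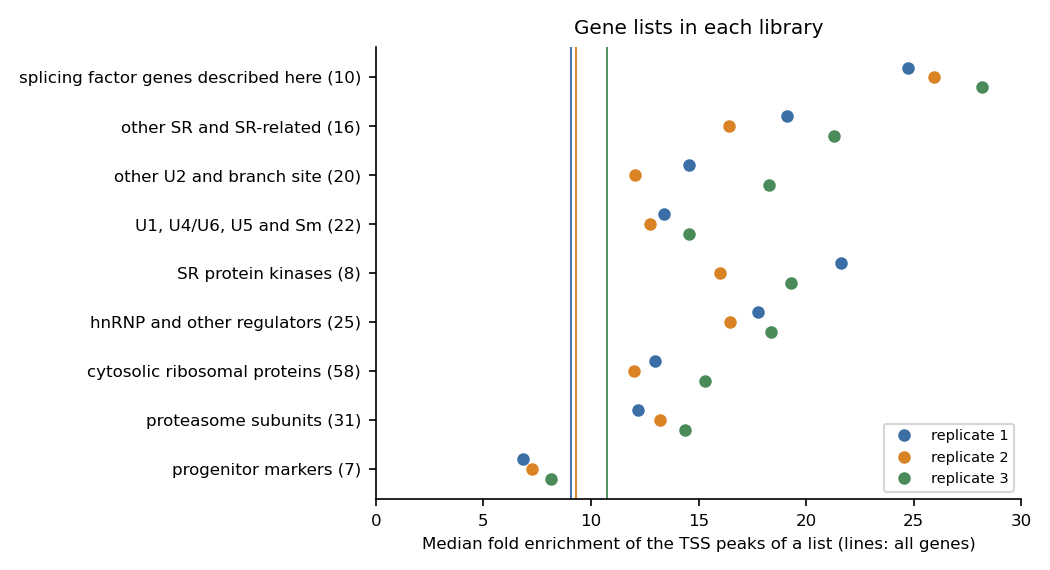
Median fold enrichment of TSS peaks (horizontal axis) of each gene list (number of genes in brackets) in replicates 1, 2 and 3. Vertical lines mark the median over all genes in the library of that colour, and the splicing factor genes lie furthest to the right in each library, at 24.7, 25.9 and 28.2.

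Within the other splicing lists the widest and narrowest TSS peaks spanned a larger range than the members did, taking genes with a TSS peak in all 3 libraries. Among SR and SR-related genes, Srsf4 was the widest at 1427 ± 69.3 bp (SD, n = 3) and Bud13, a subunit of a complex that retains unspliced RNA, the narrowest at 434 ± 184 bp (SD, n = 3). Srsf12 had no TSS peak in any library. Among U2 and branch site genes, Sf3a2, a subunit of SF3a, was the widest at 2178 ± 77.4 bp (SD, n = 3), wider than Srsf6 in 3 of 3 libraries, and U2af1l4, a relative of U2af1, the narrowest at 411 ± 13.3 bp (SD, n = 3). Sf3b5, a small subunit of SF3b, had none in any library, although its partner Sf3b1 was among the strongest. In the U1, U4/U6, U5 and Sm list Prpf19 was the widest at 1236 ± 364 bp (SD, n = 3) and Snrpd3 the narrowest at 317 ± 26.6 bp (SD, n = 3). Clk3 (2035 ± 142 bp, SD, n = 3) and Srpk2 (561 ± 263 bp, SD, n = 3) were the ends of the kinase list. Ddx5 (2153 ± 1029 bp, SD, n = 3) and Ddx41 (358 ± 125 bp, SD, n = 3), both RNA helicase genes, were the ends of the hnRNP and regulator list, where Rbfox2 had no TSS peak in any library.

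Variation between the 3 libraries was similar in width for the members and for all genes, and lower for the members in fold enrichment. This difference was not tested. The CV of width had a median of 15.5% over the members and 16.1% over the 9287 genes, and that of fold enrichment 11.6% and 15.4%. Replicate 3 gave the widest peak at 6 members and the highest fold enrichment at 5, and replicate 2 the lowest fold enrichment at 6. The medians of all genes were also highest in replicate 3, at 650, 690 and 711 bp for width and 9.10, 9.30 and 10.8 for fold enrichment. The lowest median fold enrichment was that of replicate 1. These counts were not taken over all genes, so they are not shown to be particular to the members. Fold enrichment is relative to the local background that the caller expected for that library and is not scaled between libraries. An order of replicates given for a member is one of called values, which also carry differences between libraries.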

How the data were processed

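H3K27ac ChIP-seq of 3 BcorΔE9-10 KL libraries was analysed. The labels do not say whether replicates came from separate animals, so p-values refer to these libraries only. Where the 3 values share a sign, p does not depend on their spread. Single-end reads had been aligned by the authors to GRCm38/mm10 (bowtie2). They removed duplicates and called peaks in each library with MACS2 2.1.1, without pooling. The control and settings are not given in the sources used here. The deposited columns are a fold enrichment (ratio), the −log10 of p and of q, and a score, which equals the whole part of 10 times −log10 q and is not used here. The largest q was 0.0499.

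Rows that repeat an interval were joined into 1 peak with several summits. Fragments at each summit were solved from fold and p-value (tolerance 0.001 on −log10 p; 100% of rows solved, against 0.886% to 1.23% after shuffling), and depth from the background, fragments of 200 bp and a genome size of 1870000000. Intervals are exact Poisson. Gene models were GENCODE M21 and promoters RefSeq GRCm38.p6 (python 3.11.15, numpy 2.4.6, scipy 1.17.1, pandas 2.3.3). No peak passed its chromosome's end. The methods were tested on simulated data. The members and gene lists were chosen with earlier results of these data known. Named are all members, the widest, narrowest and peakless genes of each list, genes whose TSS lies in a member's peak, and the width neighbours of the 3 widest members. The design adjusted p over the members; those values are not given, since the list was chosen with results known.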

Additional observations from a re-analysis of the deposited data

How the results depend on the processing

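With 3 libraries of 1 group the exact permutation test could not go below p = 0.25, peaks under the caller's limit are not represented, and the lists hold no signal between peaks, so a gap is an absence of a called peak. No paired analysis was possible because the 3 libraries have no counterpart group. When only the principal TSS was used, the members' median fold enrichment was 24.1 in place of 26.3, and 5 members in place of 6 stayed above the 95th percentile, since the peak of Srsf11 at its second start was then left out. Over all genes 272 of 8898 were then above it in each library. When the peak had to hold a TSS, 5 members had one in all 3 libraries, 4 were wider than the library median and 4 reached further downstream. The reason is that Srsf2, Srsf3, Tra2b, Sf3b1 and U2af1 have no peak over a protein-coding start in at least 1 library. Over all genes 23.7% then had one. Only 2 members in place of 6 were then above the 95th percentile in each library, beside 177 of 5171 genes. Joining peaks within 500 bp raised the median width to 1885 bp, beside 979 bp over all genes, placed all 10 members above the library median, and turned the reach of Srsf3 to 937 bp downstream. Taking the widest peak turned it to 1523 bp, so the direction at Srsf3 rests on ranking its peaks by fold, and left Srsf3 not above the median fold in each library (9 members in place of 10). By −log10 p in place of fold the members' median was 116, beside 27.2 over all genes. By that measure 5 members were above the 95th percentile in each library, beside 284 of 9287 genes. Counting gene bodies alone left 5 other peaks per library in place of 11.7. Leaving out 1 library gave 10 members with a TSS peak each time, a median width of 1162 to 1310 bp, a median fold of 25.3 to 27.1, 9 to 10 members wider than the median, 8 reaching downstream, and 10.5 to 12.5 other peaks. The reach of Srsf6 ran from -102 to 8.5 bp, positive without replicate 1. A −log10 q of at least 5 and a flank of 10 kb changed no direction and no count by over 1.5 times. The shares of all genes above the median width or fold, or reaching further downstream, were not counted under these alternatives.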

Other observations

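Some splicing genes outside the 10 had still stronger TSS peaks. They were chosen after their values were seen. Clk1, a kinase that phosphorylates SR proteins, had a fold enrichment of 47.9, 46.4 and 51.8 in replicates 1, 2 and 3, above every member in each library. Dhx15, a helicase that takes the spliceosome apart, had 40.6, 38.4 and 45.5, above every member in replicates 2 and 3 and below Tra2b in replicate 1. Tra2a, the paralogue of Tra2b, had 39.2, 34.4 and 36.4, below Tra2b in replicate 1 and above it in replicates 2 and 3. No explanation was tested for these values.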
